A study of Mus musculus with 12 samples.

Results

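The MYC network was followed in 9 genes, Myc, Mycn, Mycl, Max, Mxd1, Mxd3, Mxd4, Mnt and Mxi1, among the 35652 genes listed in the tables of cultured and fetal cells. They were chosen by name as members of the family; all 9 were also found at postnatal day 7 and all 9 passed the filter on low counts in each comparison. RNA was measured by SC3-seq, which amplifies cDNA from small amounts of RNA and reads the 3' ends of transcripts, in 12 mouse libraries that form 6 groups of 2. In culture, 2 knockout lines of germline stem cells (GSCs, self-renewing cultures of male germ cells) labelled Stag3 KO, called KO1 and KO2, were set against GSCs labelled WT. All 3 came from a line that carries the transgenes Acrosin-EGFP and beta-Actin-EGFP (AAG). Stag3 encodes a cohesin subunit of the germline. In vivo, male germ cells came from testes of Vasa-RFPTg/0 mice at embryonic days 16 (E16) and 17 (E17) and at postnatal day 7 (P7). The sources used here do not say how the alleles were made, whether each line is a clone, how germ cells were sorted or whether animals were pooled.

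MAX is the shared partner of this network. It pairs with MYC, MYCN or MYCL, and these pairs bind E-box DNA and recruit coactivators to genes of ribosome production, metabolism and cell growth. It also pairs with MXD1, MXD3, MXD4, MXI1 or MNT, and those pairs bind the same sites and recruit the SIN3 and histone deacetylase corepressor. In mouse male germline stem cells, Mycn is known as a gene of self-renewal downstream of the growth factor GDNF.

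Total counts were 1938644 to 4596607 per library, so 3 counts, taken as the floor, equal 0.748 to 1.73 RPM (reads per 1000000 gene counts without mitochondrial genes). Of 10 germ cell markers, 9 or 10 were above 0 in both libraries of every group, with sums of 2351 to 3824 RPM. Single markers differed between groups. Tex19.1 was 3.49 to 4.41 RPM in KO1 and 0 to 0.27 RPM in KO2, against 36.8 to 42.1 RPM in GSC WT. Zbtb16 (49.9 to 65.1 RPM against 100 to 103 RPM) and Nanos3 (23.25 to 28.3 RPM against 50.1 to 66.7 RPM) were lower in both lines. Gfra1 was higher in both (153.9 to 167 RPM against 124.1 to 138.9 RPM). In the fetal libraries Zbtb16, Nanos2 and Nanos3 reached at most 4.93, 1.49 and 4.71 RPM. Stag3 itself was 294.6 and 304.4 RPM in KO1 and 137.4 and 152.3 RPM in KO2, against 384.7 and 420.4 RPM in GSC WT, and a 3' tag may lie outside the altered part, so this does not check the knockout. The 2 libraries of every group differed by more than sampling noise, and chi-square over its degrees of freedom was highest for E16, at 5.96, and for GSC WT, at 3.93. No source used here says whether the libraries of a group came from separate cultures or animals, so the p-values measure the spread between these libraries, which may be technical.

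The clearest difference in the knockout lines was a higher level of Myc, while its paralog Mycn was lower with less certainty. Myc, the founding member of the family, lies on chromosome 15 (chr15:61985341-61990361, build GRCm38.p6). It had 11.5 and 7.33 RPM in KO1 and 11.9 and 15.3 RPM in KO2, against 1.63 and 1.74 RPM in GSC WT. The lowest knockout library was above both WT libraries, and the WT values rest on 6 and 7 reads. Myc rose by 2.67 ± 0.42 on the log2 scale (SE) in the mean of both lines (edgeR's quasi-likelihood test, adjusted p = 3.11e-07 after Benjamini and Hochberg). It rose in KO1, by 2.42 ± 0.47 (adjusted p = 7.29e-05), and in KO2, by 2.93 ± 0.44 (adjusted p = 1.85e-07), in the same test. The ratio of read counts, scaled to depth, was 5.66 in KO1, with an exact 95% counting interval of 3.08 to 11.2, and 8.01 in KO2, with an interval of 4.48 to 15.6. Leaving out any 1 library kept the call, with values of 2.49 to 2.81 for the mean of both lines.

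Mycn, which encodes N-MYC, lies on chromosome 12 (chr12:12936093-12941836) and was read far more often than its paralogs in culture. It had 69.7 and 85.2 RPM in KO1 and 58.9 and 70.5 RPM in KO2, against 86.0 and 129.8 RPM in GSC WT. All 4 knockout libraries were below both WT libraries, but the highest knockout value and the lower WT value lay close together. Mycn fell by 0.66 ± 0.12 on the log2 scale in the mean of both lines (edgeR, adjusted p = 5.18e-06), and it remained past the threshold without any 1 library, at -0.91 to -0.37. In KO1 alone the change of -0.54 ± 0.14 (edgeR, adjusted p = 0.00342) lost its call without the second WT library, at -0.24 (adjusted p = 0.307), and without the first KO1 library, at -0.40 (adjusted p = 0.159). In KO2 the change was -0.79 ± 0.14 (edgeR, adjusted p = 5.97e-06) and kept its call.

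Mycl, which encodes L-MYC (chr4:122995588-123002490), had 10.6 and 8.38 RPM in KO1 and 6.21 and 7.49 RPM in KO2, against 15.8 and 11.7 RPM in GSC WT. The groups did not overlap, and Mycl fell by 0.81 ± 0.28 on the log2 scale in the mean of both lines (edgeR, adjusted p = 0.0273). This call depended on single libraries: without the first WT library the value was -0.57 (adjusted p = 0.312), without the second KO1 library -0.73 (adjusted p = 0.0826) and without the first KO2 library -0.76 (adjusted p = 0.0723).

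Read as shares of all reads of the 3 MYC paralogs, which compares libraries and not genes, Myc made up 12.5% and 7.27% in KO1 and 15.4% and 16.4% in KO2, against 1.58% and 1.22% in GSC WT. The exact binomial 95% intervals, which cover counting error only, reached down to 4.55% in the lowest knockout library and up to 3.41% in the highest WT library. The 4 knockout libraries averaged 12.9% ± 4.10 and the 2 WT libraries 1.4% ± 0.256 (SD), and the exact permutation test over libraries gave a two-sided p of 0.133, the smallest that its 15 splits allow. The Mycn share was 78.1% ± 4.22 in the 4 knockout libraries, against 86.9% ± 5.27 in the 2 WT libraries (exact permutation, two-sided p = 0.267, under the same limit). The Mycn shares overlapped where the levels did not, at 84.4% in the second KO1 library against 83.2% in the first WT library.

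**Figure D1:**
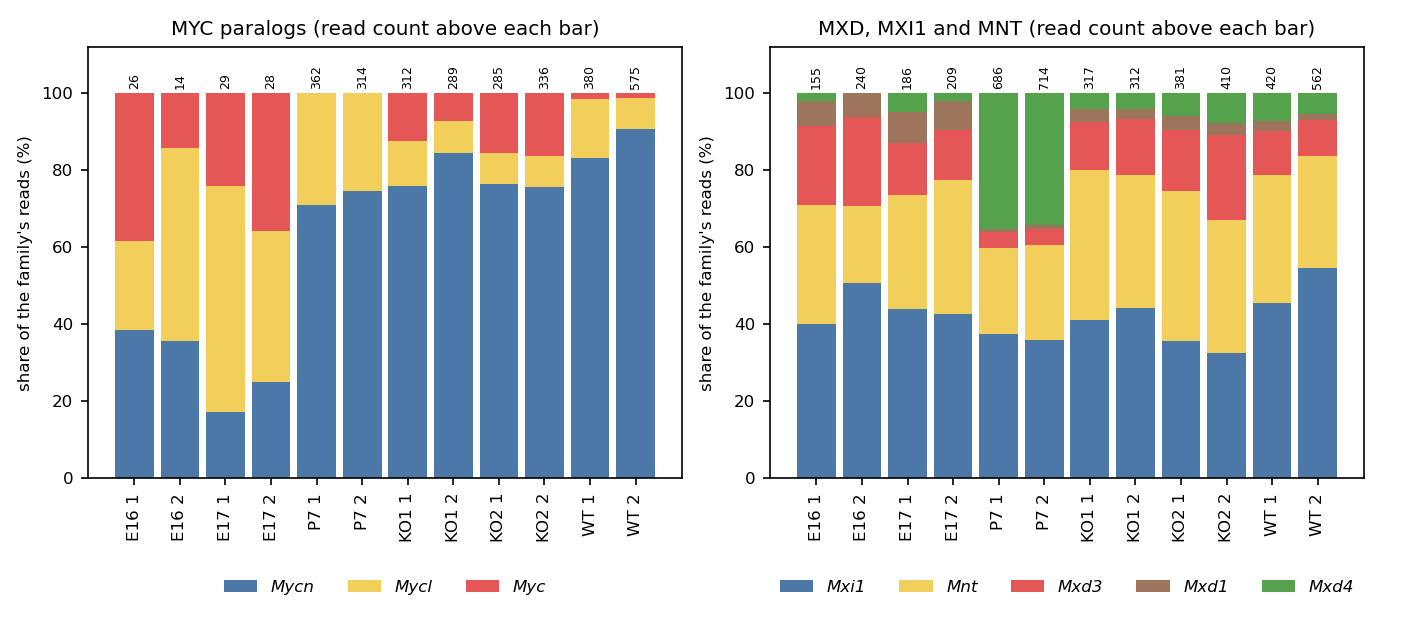
Share of reads (percent, vertical axis) taken by each gene among the 3 MYC paralogs (left) and among Mxi1, Mnt, Mxd3, Mxd1 and Mxd4 (right) in each of the 12 libraries, with the reads behind each bar printed above it. Myc took 7.27% to 16.4% of paralog reads in the knockout libraries and 1.22% to 1.58% in GSC WT, and Mxd4 took 35.1% and 34.2% of the reads on the right at P7; the E16 and E17 bars on the left rest on 14 to 29 reads.

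Max (chr12:76937269-76962323) had 50.3 and 31.8 RPM in KO1 and 43.5 and 42.2 RPM in KO2, against 33.8 and 45.1 RPM in GSC WT. The groups overlapped, and the log2 fold change of 0.04 ± 0.15 for the mean of both lines did not pass the test (edgeR, adjusted p = 0.887). Among the repressive partners, Mxi1 (chr19:53310128-53373293) had 38.2 and 48.2 RPM in KO1 and 36.7 and 36.9 RPM in KO2, against 52.0 and 76.5 RPM in GSC WT. Mxi1 fell by 0.74 ± 0.14 on the log2 scale in the mean of both lines (edgeR, adjusted p = 1.75e-05), with no overlap between knockout and WT libraries. In KO1 alone its change of -0.63 ± 0.16 (edgeR, adjusted p = 0.0038) lost its call without the second WT library, at -0.36 (adjusted p = 0.216), and without the first KO1 library, at -0.47 (adjusted p = 0.158). Mxi1 overlaps the annotated gene Gm30541, and no source used here gives the strand setting of the counts, so their reads cannot be told apart.

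The remaining repressive partners did not pass the test in the mean of both lines. Mnt (chr11:74830806-74845725) stayed within 36.5 to 40.0 RPM in the 4 knockout libraries, against 38.1 and 40.9 RPM in GSC WT, with a log2 fold change of -0.09 (edgeR, adjusted p = 0.725). Mxd4 (chr5:34176580-34187710) had 3.83 and 4.54 RPM in KO1 and 6.21 and 8.88 RPM in KO2, against 8.17 and 7.72 RPM in GSC WT, and its change of -0.55 gave an adjusted p of 0.285 with edgeR. The KO2 libraries lay around the WT values, while both KO1 libraries lay below them. Mxd1 (chr6:86647044-86669234, overlapping Gm38850) was at 2.79 to 3.61 RPM in the knockout libraries and 2.99 and 1.99 RPM in GSC WT, from 8 to 13 reads per library, and its change of 0.35 ± 0.53 had an adjusted p of 0.707 with edgeR. Mxd3 (chr13:55325170-55329900) had 11.5 and 15.7 RPM in KO1 and 16.5 and 24.97 RPM in KO2, against 13.1 and 13.0 RPM in GSC WT; it overlaps Prelid1, so its counts are uncertain, and its change of 0.31 had an adjusted p of 0.394 with edgeR.

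In all, 1 of the 9 members rose and 3 fell in the mean of both lines, where 8.64% of the 11890 genes tested rose and 10.6% fell, 19.2% in either direction. In KO1, 1 rose and 2 fell, beside 6.24% and 7.4% of all genes (13.6% in either direction), and in KO2, 1 rose and 3 fell, beside 7.19% and 8.45% (15.6% in either direction). With ERCC spike-ins as the scale, 297 genes rose and 849 fell in KO1, in place of 742 and 880, and 696 rose and 495 fell in KO2, in place of 855 and 1005. DESeq2 called 3, 1 and 3 members in the same 3 comparisons, beside 1083, 679 and 864 of all genes, where edgeR called 2286, 1622 and 1860. With DESeq2 Mycl missed the threshold in the mean of both lines (adjusted p = 0.166) and in KO2 (adjusted p = 0.144), and Mycn (adjusted p = 0.0834) and Mxi1 (adjusted p = 0.0771) missed it in KO1. The median log2 fold change was -0.09 over the members and 0.00 over all genes tested. KO1 and KO2 were also compared directly. The edgeR test called 0 of the 9 members there, beside 0.833% of all genes (0.547% higher and 0.286% lower in KO1), and DESeq2 called 0, beside 35 of all genes. In the edgeR test 1 member, Mxd3, had an unadjusted p under 0.05, with a log2 fold change of -0.62 (adjusted p = 0.43).

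Markers of other cells moved with these groups. The summed level of 7 fibroblast and feeder cell markers was 42.2 to 48.6 RPM in KO1 and 33.9 to 37.5 RPM in KO2, against 87.9 and 88.0 RPM in GSC WT, with 6 of the 7 above 0 in both libraries of each group and Lum at 0 in both KO2 and both WT libraries. Against that sum, Thy1 was higher in KO1 (7.68 to 12.65 RPM against 3.99 to 6.26 RPM) and overlapped GSC WT in KO2. The 8 Sertoli cell markers summed to 28.8 to 31.8 RPM in KO1 and 13.0 to 18.1 RPM in KO2, against 19.6 to 19.7 RPM in GSC WT, with Amh and Fshr at 0 throughout. These markers did not move together. Clu was higher in KO1 (6.63 to 7.36 RPM) and KO2 (5.55 to 5.67 RPM) than in GSC WT (1.495 to 1.634 RPM). Sox9 was higher in KO1 (8.38 to 8.53 RPM against 1.63 to 2.74 RPM). Wt1 was lower in KO2 (3.61 to 7.56 RPM against 12.71 to 16.06 RPM) and overlapped GSC WT in KO1. The part of other cells in the differences of Myc, Mycn, Mycl and Mxi1 was not tested. In bulk RNA, fewer cells of a type and less RNA per cell cannot be told apart.

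In the testis, the paralogs were ordered differently by age, and the largest differences lay between E17 and P7. Mycn had 4.97 and 1.76 RPM at E16, 2.89 and 3.66 RPM at E17 and 84.5 and 72.3 RPM at P7. The fetal libraries held 5 to 10 Mycn reads each and the P7 libraries 257 and 234. Mycn rose by 4.71 ± 0.36 on the log2 scale at P7 against E17 (edgeR, adjusted p = 4.78e-08), and the ratio of read counts, scaled to depth, was 23.7, with a counting interval of 13.5 to 46.3. Mycl had 2.98 and 2.46 RPM at E16, 9.82 and 5.76 RPM at E17 and 34.5 and 24.7 RPM at P7. It rose by 2.08 ± 0.38 at P7 against E17 (edgeR, adjusted p = 0.00023), with no overlap between the ages.

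Myc was the paralog that fell. It had 4.97 and 0.704 RPM at E16 and 4.05 and 5.23 RPM at E17, from 2 to 10 reads per library, and 0 reads in both P7 libraries. Set against the floor of 3 counts per library, Myc was at least 4.88-fold lower at P7 than at E17 (edgeR, adjusted p = 0.00272). Among 362 and 314 paralog reads at P7, 0 Myc reads allow a share of up to 1.01% and 1.17%, the upper ends of the exact binomial 95% intervals. The E16 libraries held 10 and 2 Myc reads and those of E17 7 and 10, and their values overlapped.

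Mxd4, which encodes an MXD repressor that competes with MYC for MAX, had the largest difference among the repressive partners. It had 1.49 and 0 RPM at E16, 5.20 and 2.09 RPM at E17 and 79.2 and 75.4 RPM at P7. Mxd4 rose by 4.57 ± 0.40 on the log2 scale at P7 against E17 (edgeR, adjusted p = 1.88e-07), and the ratio of read counts, scaled to depth, was 21.6, with a counting interval of 12.5 to 41.0. Its share among reads of the 5 repressive partners was 35.1% and 34.2% at P7, 4.84% and 1.91% at E17, and 1.94% and 0% at E16, where 0 of 240 reads allow up to 1.53% (exact binomial 95% interval). Mxd1 went the other way, with 1.97 and 2.16 RPM at P7 against 8.67 and 8.37 RPM at E17, and it fell by 1.86 ± 0.60 (edgeR, adjusted p = 0.0123). That call was lost without any 1 of the E17 or P7 libraries, with adjusted p of 0.0571 to 0.0999.

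Mxi1 had 30.8 and 42.9 RPM at E16, 47.4 and 46.6 RPM at E17 and 84.5 and 79.1 RPM at P7, and rose by 0.96 ± 0.21 at P7 against E17 (edgeR, adjusted p = 0.000975). Mnt had 23.9 and 16.9 RPM at E16, 31.8 and 38.2 RPM at E17 and 50.3 and 54.7 RPM at P7, and rose by 0.74 ± 0.23 (edgeR, adjusted p = 0.0096). Max had 21.9 and 23.9 RPM at E16, 38.7 and 36.6 RPM at E17 and 59.5 and 49.1 RPM at P7, and rose by 0.68 ± 0.22 (edgeR, adjusted p = 0.012). These 3 genes were each highest at P7 among the ages. The calls of Max and Mnt did not hold throughout: Max had an adjusted p of 0.0525 without the first and 0.0855 without the second E17 library and 0.0983 without the first P7 library, and Mnt 0.0967 without the first E17 and 0.064 without the second P7 library. Mxd3 had 15.9 and 19.4 RPM at E16, 14.4 and 14.1 RPM at E17 and 9.54 and 9.27 RPM at P7, and its change of -0.44 did not pass the test (edgeR, adjusted p = 0.291).

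Thus 6 members rose and 2 fell at P7 against E17, where 30.2% of the 14776 genes tested rose and 37.8% fell, 67.9% in either direction. DESeq2 called 6 of the 9, leaving out Max (adjusted p = 0.0688) and Mnt (adjusted p = 0.0559), beside 8682 of all genes, where edgeR called 10040. The median log2 fold change was 0.74 over the members and -0.13 over all genes tested. At E17 against E16 the edgeR test called 0 of 9 members, beside 6.6% of all genes (1.64% higher and 4.96% lower), and DESeq2 called 0, beside 720 of all genes. With edgeR 2 members had an unadjusted p under 0.05, Mycl (log2 fold change 1.17 ± 0.53, adjusted p = 0.206) and Mxd4 (2.1 ± 0.89, adjusted p = 0.175). Mxd4 passed the threshold there without the first E16 library, the one that held its 3 E16 reads (adjusted p = 0.00625).

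**Figure D2:**
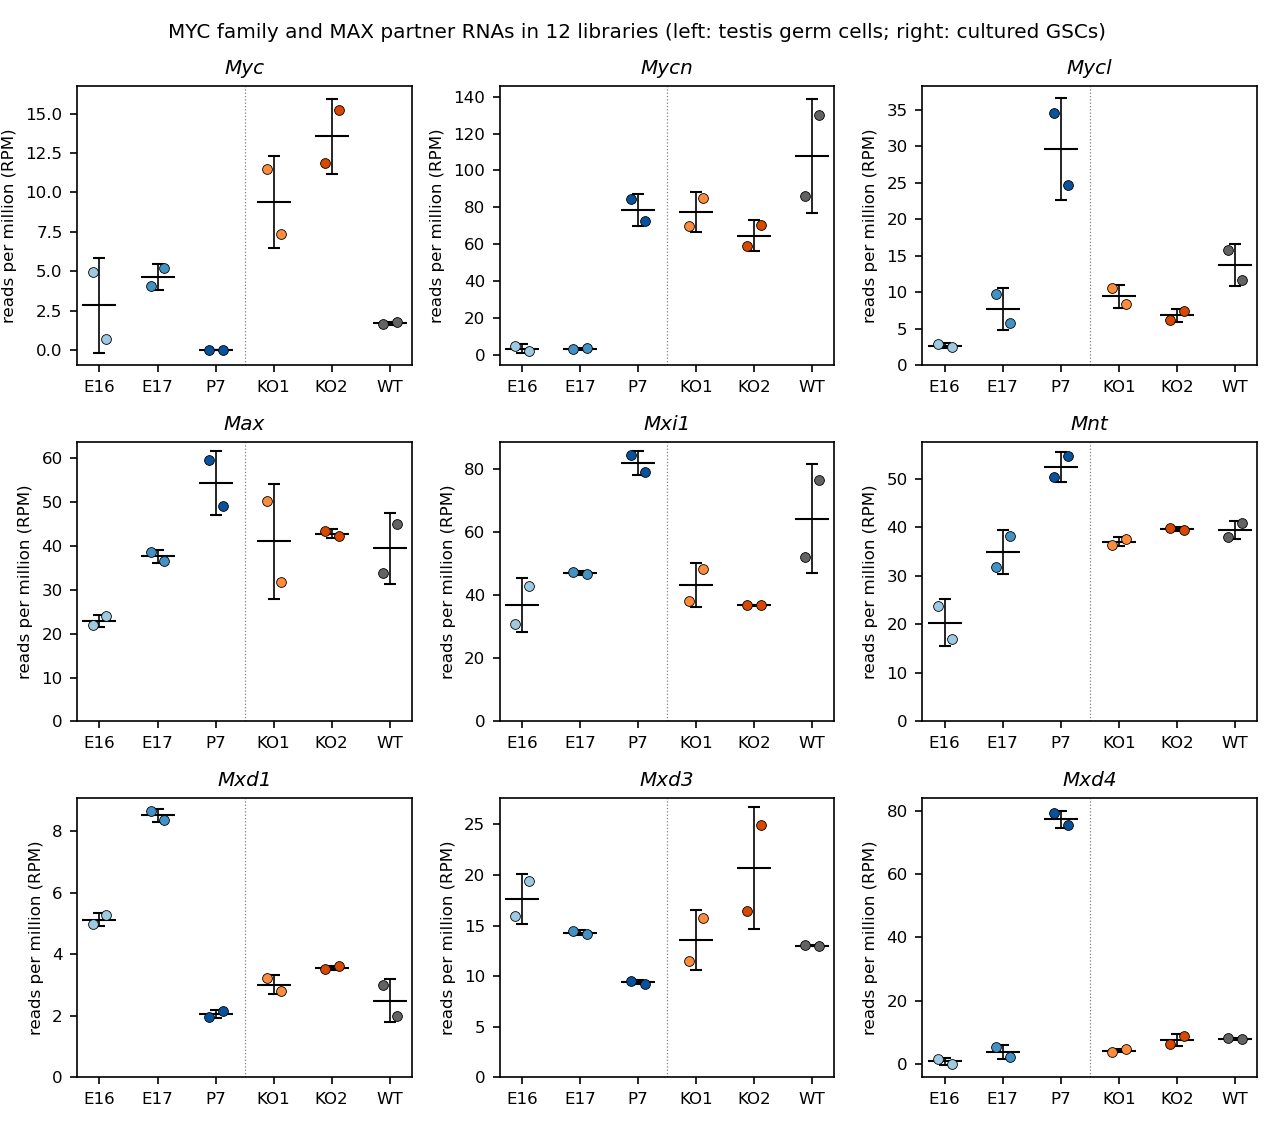
Level of each member in RPM (vertical axes, 1 panel per gene) in testis germ cells at E16, E17 and P7 and in cultured KO1, KO2 and WT GSCs; points are libraries, and black bars are the group mean ± SD (n = 2). Mycn is at 1.76 to 4.97 RPM in the fetal groups and at 58.9 RPM or more elsewhere, Mxd4 is at 79.2 and 75.4 RPM at P7 and at most 8.88 RPM elsewhere, and Myc is highest in KO1 and KO2.

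Scaling moved these values, and markers of somatic cells differed between the ages. Reads of the ERCC spike-ins were 1.22% and 1.52% of the total at E16, 0.194% and 0.231% at E17, 5.85% and 4.69% at P7 and 2.80% to 3.41% in GSCs. Scaling to the spike-ins in place of the gene counts moved the median log2 fold change of all genes to -4.81 at P7 against E17 and to 3.02 at E17 against E16, and 37 genes then rose and 14486 fell at P7 against E17 in place of 4458 and 5582. On that scale Mycl (-2.63), Max (-4.02), Mxi1 (-3.73), Mnt (-3.93) and Mxd4 (-0.12) turned negative at P7 against E17, and Mycn, at 0.05, lost its call. Relative to the median of all genes, every member kept its sign at P7 against E17. Sertoli cell markers summed to 124 to 141 RPM at E16, 116 to 129 RPM at E17 and 47.0 to 69.9 RPM at P7, with Amh at 0 throughout and Clu alone at 83.8 RPM or more in the fetal libraries. Against the Sertoli sum, Sox9 was higher at P7 (6.49 to 9.54 RPM) than at E17 (4.05 to 5.23 RPM). Erythroid markers summed to 131 to 248 RPM at E16, 89.0 to 103 RPM at E17 and 11.8 to 77.9 RPM at P7, and fibroblast markers to 164 to 183 RPM, 305 to 341 RPM and 120 to 146 RPM at the same ages. Against the fibroblast sum, Col1a1 was higher at P7 (57.55 to 65.84 RPM) than at E17 (28.9 to 36.11 RPM). Leydig markers summed to 27.3 to 29.9 RPM at E16, 33.5 to 37.2 RPM at E17 and 2.78 to 8.55 RPM at P7, where 4 of the 5 were listed, and myoid markers to 53.7 to 60.9 RPM, 64.7 to 71.7 RPM and 9.54 to 20.1 RPM at the same ages. Endothelial markers summed to 34.1 to 36.8 RPM at E16, 52.9 to 57.2 RPM at E17 and 17 to 18.7 RPM at P7, and macrophage markers to 10.4 to 10.6 RPM, 12.7 to 18.3 RPM and 0.987 to 2.78 RPM. Their part in the members' values was not tested. The P7 tables use another gene list than the rest, so age and gene list cannot be told apart.

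Against cultured GSC WT, the largest measured fold at P7 was that of Mxd4. Mxd4, at 79.2 and 75.4 RPM at P7 against 8.17 and 7.72 RPM in GSC WT, was higher by 3.15 ± 0.30 on the log2 scale (edgeR, adjusted p = 1.46e-10). Mycl, at 34.5 and 24.7 RPM at P7 against 15.8 and 11.7 RPM in GSC WT, was higher by 0.97 ± 0.31 (edgeR, adjusted p = 0.0133), a call lost without the second WT library (0.75) or the first P7 library (0.70). Mycn, at 84.5 and 72.3 RPM at P7 against 86.0 and 129.8 RPM in GSC WT, was lower by a log2 fold change of -0.59 ± 0.18 (edgeR, adjusted p = 0.0092). That call rested on the second WT library, without which the value was -0.28 (adjusted p = 0.376), and was lost without the second P7 library (-0.52, adjusted p = 0.104). Myc, with 0 reads at P7 and 6 and 7 reads in GSC WT, was at least 1.77-fold lower (edgeR, adjusted p = 0.00751), and its adjusted p was 0.0531 or 0.0541 without either P7 library.

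So 2 of 9 members were higher and 2 lower at P7 than in GSC WT, where 16% and 15% of the 15827 genes tested were, 31% in all. DESeq2 called 4 members too, beside 4264 of all genes, where edgeR called 4909. With spike-in scaling 909 genes were higher and 4709 lower in place of 2538 and 2371, and the median of all genes was -0.42. The median log2 fold change was 0.21 over the members and 0.03 over all genes. Max (0.33), Mxi1 (0.21), Mnt (0.28), Mxd1 (-0.39) and Mxd3 (-0.60) did not pass the test, which does not show that they were alike; their adjusted p lay above the threshold of 0.05. Markers of other cells moved here too: Sertoli markers summed to 47.0 to 69.9 RPM at P7 against 19.6 to 19.7 RPM in GSC WT, and fibroblast markers to 120 to 146 RPM against 87.9 to 88.0 RPM. Among the Sertoli markers, Clu was higher at P7 (23.02 to 41.42 RPM against 1.495 to 1.634 RPM). Wt1 was lower there (5.92 to 8.35 RPM against 12.71 to 16.06 RPM). The fibroblast markers did not move together. Col1a1 was higher at P7 (57.55 to 65.84 RPM against 13.61 to 16.2 RPM), as was Pdgfra (12.5 to 16.38 RPM against 6.807 to 11.21 RPM). Col3a1 was lower (22.03 to 22.25 RPM against 29.13 to 37.38 RPM), and Col1a2, Dcn and Thy1 overlapped. Endothelial markers summed to 17 to 18.7 RPM at P7 against 5.23 to 6.26 RPM in GSC WT, and erythroid markers to 11.8 to 77.9 RPM against 0.249 to 0.272 RPM. Their part in these differences was not tested.

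Fetal germ cells, taken as the mean of E16 and E17, stood further from GSC WT. Mycn, at 1.76 to 4.97 RPM in the 4 fetal libraries against 86.0 and 129.8 RPM in GSC WT, was lower by a log2 fold change of -5.19 ± 0.24 (edgeR, adjusted p = 1.33e-20). Mxd4 (-2.50 ± 0.46, adjusted p = 1.22e-05), Mycl (-1.71 ± 0.34, adjusted p = 3.26e-05), Mxi1 (-0.75 ± 0.17, adjusted p = 0.000159), Mnt (-0.71 ± 0.18, adjusted p = 0.000509) and Max (-0.56 ± 0.19, adjusted p = 0.00871) were also lower in the edgeR test. Mxd1 was higher by 1.27 ± 0.52 (edgeR, adjusted p = 0.027), at 4.97 to 8.67 RPM in fetal cells against 2.99 and 1.99 RPM in GSC WT, a call lost in 4 of the 12 fits that left out 1 library. Myc (0.88 ± 0.61, adjusted p = 0.196) and Mxd3 (0.16) did not pass in edgeR, although Myc passed without the second E16 library (1.28, adjusted p = 0.0404). Max lost its call without the second WT library (-0.37, adjusted p = 0.183).

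That makes 1 member higher and 6 lower in fetal cells, where 41.9% and 32.3% of all genes tested were, 74.2% in all. DESeq2 called 6, leaving out Max (adjusted p = 0.123), beside 10462 of all genes, where edgeR called 11750. The median log2 fold change was -0.71 over the members and 0.23 over all genes. With spike-in scaling the median of all genes moved to 2.87, with 14505 genes higher and 158 lower in place of 6637 and 5113, and Mycl (0.92), Max (2.07), Mxi1 (1.86), Mnt (1.93) and Mxd4 (0.11) turned positive, while Mycn stayed lower. Somatic markers differed here too: Sertoli markers summed to 116 to 141 RPM in the fetal libraries against 19.6 to 19.7 RPM in GSC WT. Most of that fetal sum was Clu (83.8 to 109.8 RPM against 1.495 to 1.634 RPM). Wt1 went the other way, at 4.47 to 7.51 RPM in the fetal libraries against 12.71 to 16.06 RPM. Leydig markers summed to 27.3 to 37.2 RPM in fetal cells against 1.91 to 2.24 RPM, and myoid markers to 53.7 to 71.7 RPM against 4.74 to 7.62 RPM. Endothelial markers summed to 34.1 to 57.2 RPM against 5.23 to 6.26 RPM in GSC WT, macrophage markers to 10.4 to 18.3 RPM against 1.36 to 1.99 RPM and erythroid markers to 89.0 to 248 RPM against 0.249 to 0.272 RPM. Their part in these differences was not tested. The comparisons at P7 and in fetal cells share the GSC WT libraries.

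**Figure D3:**
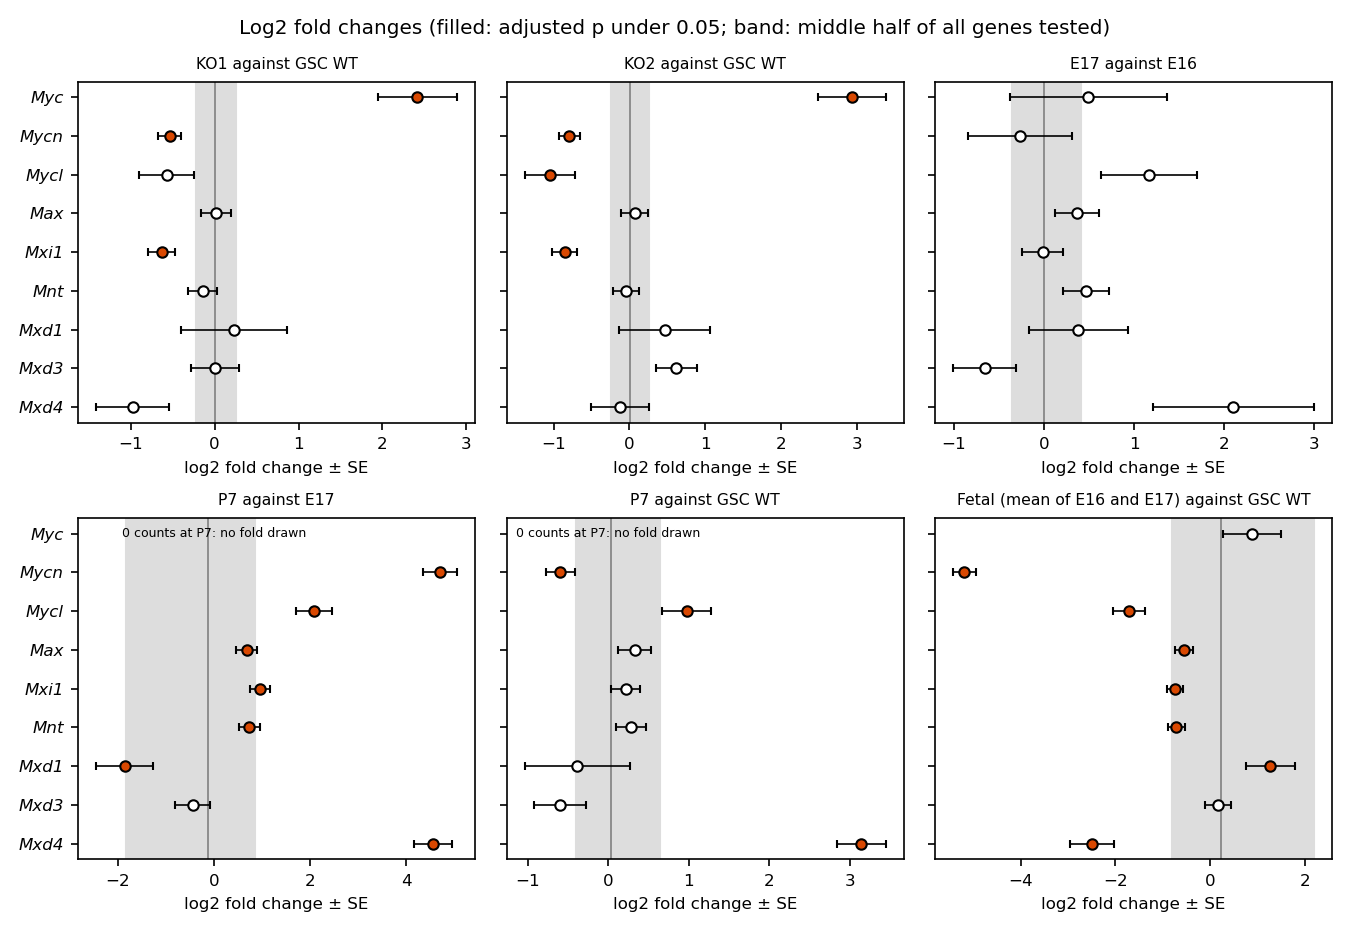
Log2 fold change ± SE (horizontal axes) of each member in 6 comparisons; filled points have an edgeR adjusted p under 0.05, the grey line is the median of all genes tested and the band holds the central 50% of them. Mycn stands at 4.71 at P7 against E17 and at -5.19 in fetal cells against GSC WT, and Myc at 2.42 in KO1 and 2.93 in KO2; Myc is not drawn where P7 has 0 reads.

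The levels across the 6 groups put each member in its own order. Myc was highest in KO2 (13.6 ± 2.39 RPM, SD, n = 2) and KO1 (9.40 ± 2.93 RPM), whose means lay within the sum of their SDs, followed by E17 (4.64 ± 0.84 RPM), E16 (2.84 ± 3.02 RPM) and GSC WT (1.69 ± 0.0783 RPM), where E16 overlapped both neighbours, and by P7 at 0. Mycn was highest in GSC WT (108 ± 31.0 RPM), with P7 (78.4 ± 8.62 RPM), KO1 (77.5 ± 10.9 RPM) and KO2 (64.7 ± 8.21 RPM) next. Neighbouring means among these 4 groups lay within the sum of their SDs, and E16 and E17, at 3.36 ± 2.27 RPM and 3.28 ± 0.547 RPM, lay far below. Mycl had P7 (29.6 ± 6.93 RPM) at the top and E16 (2.72 ± 0.366 RPM) at the bottom, with GSC WT (13.8 ± 2.88 RPM), KO1 (9.49 ± 1.57 RPM), E17 (7.79 ± 2.88 RPM) and KO2 (6.85 ± 0.905 RPM) between them. Neighbouring means among these 4 lay within the sum of their SDs. Max, Mnt, Mxi1 and Mxd4 had their highest mean at P7, but that of Mxi1 lay within the sum of its SD and that of GSC WT, and of these 4 only Mxd4 passed the test against GSC WT. Mxd1 was highest at E17 and Mxd3 in KO2, where its libraries overlapped those of E16.

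The genes whose levels ran most like those of a member were found by Pearson's r of log2(RPM + 1) over the 12 libraries, as a description only, since the libraries share groups, depth and gene lists. For Mycn they were Npm1 (r = 0.996), a nucleolar chaperone, Nono (r = 0.994) and Dmrt1 (r = 0.994), a transcription factor of the male germline, among 9478 genes. For Mycl they were Sall1, Eif2ak4 and Ist1 (r = 0.967, 0.967 and 0.964), and for Max they were Rnaseh1, Zdhhc20 and Mavs (r = 0.939, 0.925 and 0.924). For Myc they were Lyar (r = 0.943), a nucleolar protein, Adgre5 (r = 0.931) and Ets2 (r = 0.929).

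The promoters of Mycn, Mycl and Mxd4 are shown because these members rose most at P7 against E17. Each is the 250 bases before an annotated start from RefSeq, build GRCm38.p6, at chr12:12941837-12942086 (minus strand) for Mycn, chr4:122995681-122995930 (plus strand) for Mycl and chr5:34187711-34187960 (minus strand) for Mxd4. The Mycl window lies inside the span of the gene (chr4:122995588-123002490), before an internal start, while the other windows end at the edge of their gene. Capitals mark matches on either strand to 6 motifs. They are the E-box CACGTG that MYC and MAX bind, the TATA element TATAAA, the box with the letters CCAAT, the GC box GGGCGG, and a pair of E2F motifs, TTTGGCGC and the closely related TTTCGCGC.
Mycn: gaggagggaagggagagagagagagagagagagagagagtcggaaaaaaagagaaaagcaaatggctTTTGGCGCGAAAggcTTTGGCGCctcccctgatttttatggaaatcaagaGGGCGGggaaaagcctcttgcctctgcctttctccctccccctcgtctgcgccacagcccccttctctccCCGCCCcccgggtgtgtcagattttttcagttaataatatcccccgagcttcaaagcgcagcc
Mycl: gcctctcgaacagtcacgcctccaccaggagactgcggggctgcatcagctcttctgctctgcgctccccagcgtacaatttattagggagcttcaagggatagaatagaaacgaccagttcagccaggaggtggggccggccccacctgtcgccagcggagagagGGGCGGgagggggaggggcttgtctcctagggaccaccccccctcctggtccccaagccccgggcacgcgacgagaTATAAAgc
Mxd4: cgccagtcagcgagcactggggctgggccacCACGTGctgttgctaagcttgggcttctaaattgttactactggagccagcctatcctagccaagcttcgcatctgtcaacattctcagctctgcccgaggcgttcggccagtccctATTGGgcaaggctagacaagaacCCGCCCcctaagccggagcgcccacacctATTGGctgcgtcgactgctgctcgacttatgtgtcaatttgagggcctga
The Mycn window holds TTTGGCGC at positions -183 and -168 from the start, the first overlapping a reverse-strand TTTCGCGC at -179, and GC boxes on both strands. The Mycl window has a GC box at -84 and TATAAA at -8. The Mxd4 window has the E-box at -219, CCAAT on the reverse strand at -102 and -50 and a reverse-strand GC box at -79.

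A window of 300 bases, with 50 after the start, was found for 8 of the 9 members, all but Myc, as 10 windows in all. Of these, 3 held CACGTG, those of Mxd4, Mnt (at -123) and Max (at -3), against 7.15% of all 32851 promoter windows. Among windows of ribosome biogenesis targets of MYC 6 of 24 held it, and among those of metabolism and growth targets 9 of 28. Of the 10 member windows, 9 held GGGCGG, against 35.7% of all windows, and 2 held CCAAT, against 37.4%. TATAAA was in 1 member window, against 13.6% of all. The E2F motifs TTTGGCGC and TTTCGCGC were in 1 member window each, against 0.51% and 0.32% of all. A match describes the letters and is not a bound site.

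Genes around the network were read from lists. Of the other MAX and MLX partners, Mga, a MAX partner of a repressive complex that holds down germline genes in mouse embryonic stem cells, had 52.1 and 60.4 RPM in KO1 and 54.3 and 50.8 RPM in KO2, against 56.1 and 72.5 RPM in GSC WT. In the testis Mga had 38.8 and 18.0 RPM at E16, 51.4 and 49.2 RPM at E17 and 133 and 127 RPM at P7. Mga rose by 1.53 ± 0.23 on the log2 scale at P7 against E17 (edgeR, adjusted p = 3.63e-05) and was higher by 0.88 ± 0.17 at P7 than in GSC WT (edgeR, adjusted p = 0.000138). Mlxipl, a glucose-responsive factor that pairs with MLX, fell by 1.47 ± 0.28 at P7 against E17 (edgeR, adjusted p = 0.000341), at 15.5 and 23.2 RPM at P7 against 54.9 and 64.9 RPM at E17. It was higher in fetal cells than in GSC WT, by 1.93 ± 0.24 (edgeR, adjusted p = 1.03e-08), while Mga (-0.94) and Mlx (-0.90), the shared partner of that branch, were lower. Mga overlaps Gm13998 and Mlx overlaps Psmc3ip, so both counts are uncertain. In the knockout lines 0 of these 4 passed in the mean of both lines with edgeR, 1 of them (Mga, -0.30) had an unadjusted p under 0.05, and DESeq2 called 0; Mlx (0.12), Mlxip (-0.22) and Mlxipl (-0.28) were the others.

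Known target genes of MYC were read in the mean of both lines, where 19.2% of all genes passed the test. Of 28 ribosome biogenesis genes, 4 passed the edgeR test and all 4 fell, among them Noc4l (-0.50), Npm1 (-0.31) and Mybbp1a (-0.31), and the list's median was -0.04. Of 24 metabolism and growth genes tested, 4 rose and 5 fell with a median of -0.004: Slc19a1, a folate carrier, fell (-0.77), and Tfrc, the transferrin receptor (0.69), and Ccnd2, a D-type cyclin (0.56), rose. Among 10 coactivator genes 3 passed and fell, Trrap, the scaffold of histone acetyltransferase complexes (-0.63), Ruvbl1 (-0.32) and Ep400 (-0.31). Of 10 genes of MYC protein turnover 2 rose and 2 fell, with Usp28, a deubiquitinase that stabilises MYC, at -0.82, Plk1 at 0.46 and Fbxw7, the ubiquitin ligase subunit that marks MYC for degradation, at 0.43. Of 12 SIN3 and deacetylase corepressor genes only Ing2 passed, and it fell (-0.66). With spike-in scaling 1447 of all genes passed in place of 2286. On that scale 2 ribosome biogenesis genes passed in place of 4, and of the turnover genes 0 rose and 1 fell, so that Plk1 and Fbxw7 lost their calls. DESeq2 called 1 turnover gene. On the spike-in scale 0 of the called genes of these lists changed sign.

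At P7 against E17 these lists held more genes that rose than fell on the scale of gene counts. With spike-in scaling the median of all genes was -4.81, with 37 of all genes higher and 14486 lower. All genes of these lists fell on that scale, and relative to that median 0 of the called genes changed sign. The test called 67.9% of all genes here, 30.2% higher and 37.8% lower. Of the ribosome biogenesis genes 16 rose and 6 fell (median 0.73), with Dkc1, the pseudouridine synthase of small nucleolar particles, at 3.60, Nop58 at 2.53 and Nop16 at 1.88. Of the metabolism and growth genes 16 rose and 6 fell (median 0.92), with Ccnd2 at 3.35 and Ppat, an enzyme of purine synthesis, at 2.53, while Ldha, lactate dehydrogenase A, fell (-2.52). Among coactivators 6 rose and 2 fell (median 0.58), with Trrap at 3.12, Hcfc1 at 1.32 and Zbtb17, which encodes the MYC partner MIZ1, at -2.30. Turnover genes had 6 rising and 1 falling (median 1.01), led by Plk1 (2.77), Skp2 (1.63) and Huwe1 (1.56). Of the corepressor genes 8 rose, among them Sin3a (1.47) and Rbbp4 (1.41), and 1, Suds3 (-2.17), fell (median 0.91). All these medians stand beside -0.13 over all genes tested. At E17 against E16, where 6.6% of all genes passed, the direction depended on the scale. With spike-in scaling 14506 of the 14776 genes tested rose and 2 fell, so the lists moved with nearly all genes. On that scale all 28 ribosome biogenesis, 24 metabolism and growth, 10 coactivator, 10 turnover and 12 corepressor genes rose. On the scale of gene counts 4 ribosome biogenesis genes passed and fell, led by Fbl (-0.999), Nop56 (-0.55) and Rrp12 (-0.53), and 1 metabolism gene rose (Tfrc, 0.83) and 2 fell (Hspe1, -0.82, and Nme1, -0.55). Ruvbl1 (-0.51) and Usp28 (-0.80) were the called coactivator and turnover genes there, both lower on the scale of gene counts and both higher on that of the spike-ins; with edgeR 0 corepressor genes passed, 3 had an unadjusted p under 0.05 and DESeq2 called 0.

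At P7 against GSC WT, where 16% of all genes were higher and 15% lower, 2 ribosome biogenesis genes were higher and 9 lower (median -0.23; 0 higher and 21 lower with spike-in scaling), led by Polr1b (-1.30), a subunit of RNA polymerase I, Bop1 (-0.72) and Gnl3 (-0.60). Of the metabolism and growth genes 4 were higher and 12 lower (median -0.30; 1 higher and 16 lower with spike-in scaling, where 3 called genes changed sign), with Hk2, a hexokinase, at 1.95, Ung at -1.26 and Ldha at -1.08. Trrap was higher (1.24) and Zbtb17 (-1.01) and Kat2a (-0.84) lower among 1 higher and 4 lower coactivators, 3 turnover genes were higher, with Gsk3b at 0.68 and Huwe1 at 0.59, and of the corepressor genes Arid4b was higher (0.71) and Suds3 lower (-0.51). With spike-in scaling 1 coactivator was higher and 5 lower, 0 turnover genes were higher and 2 lower, and 0 corepressor genes were higher and 5 lower. On that scale 909 of all genes were higher and 4709 lower. In fetal cells against GSC WT, where 41.9% of all genes were higher and 32.3% lower, on the scale of gene counts, 22 of 28 ribosome biogenesis genes were lower and 3 higher (median -0.93; 1.71 with spike-in scaling, which is -1.16 relative to all genes), with Dkc1 at -4.75, Nop58 at -1.94 and Nop16 at -1.94. Of the metabolism and growth genes 17 were lower and 6 higher (median -1.06; 1.57 with spike-in scaling, which is -1.30 relative to all genes), led by Ccnd2 (-3.67), Hspd1 (-2.53) and Ppat (-2.36), beside a median of 0.23 over all genes. Of the coactivators 8 were lower and 1 higher (Trrap -1.60, Hcfc1 -1.40, Ruvbl2 -1.21), of the turnover genes 6 lower and 1 higher (Plk1 -2.26, Skp2 -1.86, Usp28 1.75), and of the corepressor genes 6 lower and 2 higher (Sin3a -2.08, Hdac1 -1.35, Suds3 1.61). These directions turned with spike-in scaling, where 14505 of the 15827 genes tested were higher and 158 lower. In that setting 27 ribosome biogenesis genes were higher and 1 lower, and 20 metabolism and growth genes higher and 1 lower. Likewise 10 coactivator, 9 turnover and 12 corepressor genes were higher and 0 lower. Relative to the median of all genes on that scale, 0 of the called genes changed sign.

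**Figure D4:**
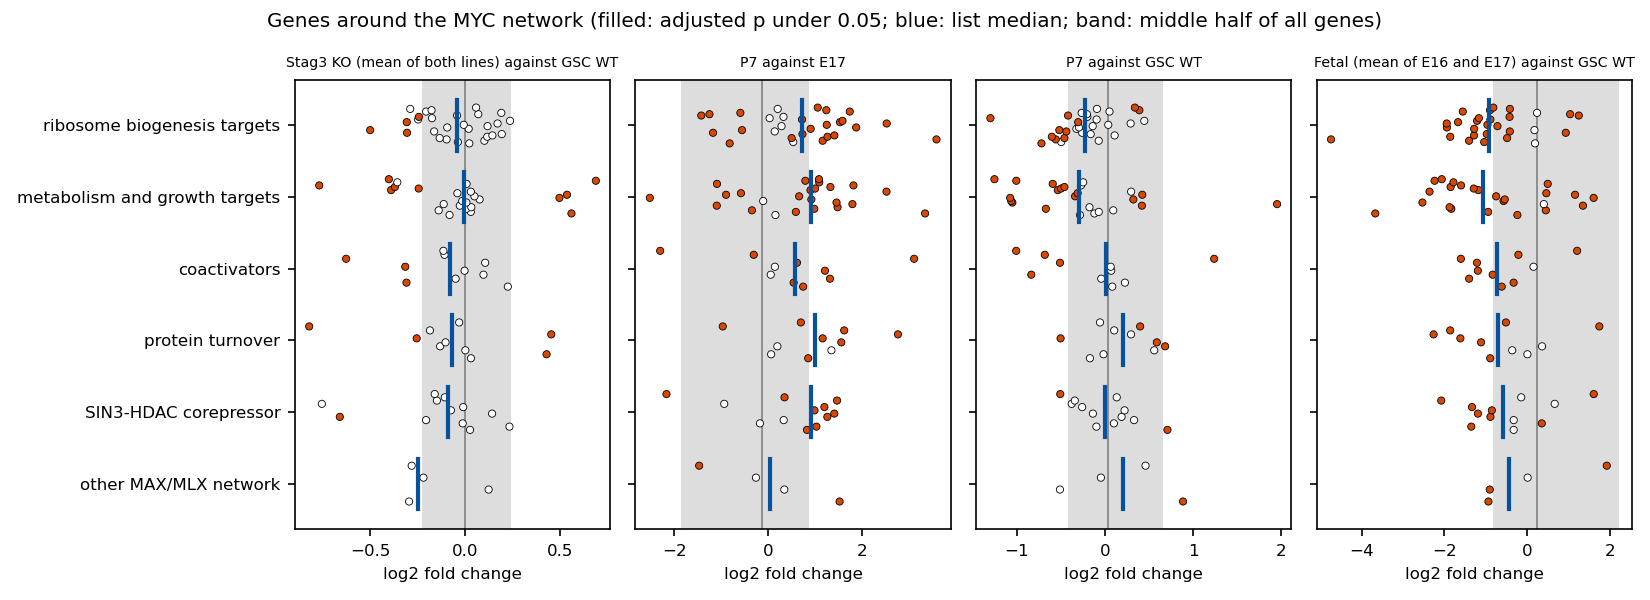
Log2 fold change (horizontal axes) of each gene of 6 lists around the MYC network in 4 comparisons; filled points have an edgeR adjusted p under 0.05, blue bars are list medians, and the grey band and line give the central 50% and the median of all genes tested. The target lists have medians of -0.04 and -0.004 in the knockout lines, 0.73 and 0.92 at P7 against E17, and -0.93 and -1.06 in fetal cells against GSC WT.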

How the data were processed

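RNA was measured in 12 mouse libraries, 2 in each of 6 groups taken from the sample titles. Per the labels' protocols, 1 ng of total RNA was reverse transcribed and amplified, and the design text names SC3-seq. Tools named in the submitters' processing notes are TopHat2 2.1.1, Salmon 1.4.0, HTSeq 0.9.1 and cutadapt 1.18, with build GRCm38.p6; no source used here gives their roles or the strand setting. The authors deposited, for each library, whole read counts per gene, and these deposited counts were used for every test. RPM were computed from them without mitochondrial, spike-in and transgene rows. The P7 tables hold another gene list (34896 genes, 31685 shared by Entrez ID), so fits with P7 used the shared genes.

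Tests used edgeR 4.0.16 (R 4.3.3; TMM scaling, filterByExpr, quasi-likelihood test) with Benjamini-Hochberg adjustment over all genes tested and a threshold of 0.05. GSC comparisons came from a fit of the 6 GSC libraries, E17 against E16 and P7 against E17 from the 6 testis libraries, and the 2 others from all 12 libraries. The SE is the log2 fold change over the square root of F. Alternatives were relative log expression size factors, DESeq2 1.42.0, no count filter, ERCC totals as size factors, 1 fit of all 12 libraries, a replicate block and each library left out. Replicate numbers did not pair the samples. The difference in log2(RPM + 1) between replicates 1 and 2 was taken in each group for 7509 genes. Between groups these differences had correlations of -0.157 to 0.095 over 15 pairs of groups. For GSC WT, titles and file names give opposite replicate numbers, and the titles were used.

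The members and lists were chosen with earlier results of these data known. Every member and every other MAX and MLX gene is named; of each other list, up to 3 called genes with the largest absolute log2 fold change per comparison are named for the mean of both lines, the testis and the GSC WT comparisons. Genes of like pattern are the 3 with the highest r for Myc, Mycn, Mycl and Max, among genes reaching a group mean of 20 RPM. Counting intervals, floors and limits cover counting error only. The value of 1 gene of the lists is not reported here.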

Additional observations from a re-analysis of the deposited data

How the results depend on the processing

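Of 426 log2 fold changes of members under alternatives other than leaving out a library, 376 kept their direction and their side of the threshold, 13 lost their call, 10 gained one and 27 changed sign; without 1 library these were 490, 30, 2 and 18 of 540. Myc in KO1, KO2 and their mean, and Mxd4 at P7 against E17 and GSC WT, kept their calls under every alternative but one: with ERCC scaling Mxd4 was -0.12 at P7 against E17. The cause of each change below was not tested.

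With ERCC scaling 1447 genes passed in the mean of both lines (2286 with TMM), 1191 in KO2 (1860) and 14508 at E17 against E16 (975), where all 9 members passed and Mycn (2.69), Mxd3 (2.39) and Mxi1 (3.05) changed sign. On that scale Max (-0.085) and Mxd3 (-0.10) changed sign in KO1 and Mnt (0.018) in KO2; Mycl (-2.63), Max (-4.02), Mxd4 (-0.12), Mxi1 (-3.73) and Mnt (-3.93) did at P7 against E17; Max (-0.24), Mxi1 (-0.35) and Mnt (-0.27) did at P7 against GSC WT; and Mycl (0.92), Max (2.07), Mxd4 (0.11), Mxi1 (1.86) and Mnt (1.93) did in fetal cells. Relative to the median of all genes, 71 of the 72 values kept their sign. Near 0, Mxd3 in KO1 was -0.0049 with relative log expression scaling, -0.00063 with DESeq2, -0.0032 with no count filter and -0.029 in the fit of all 12 libraries, where Max was -0.013; Mxi1 at E17 against E16 was 0.0096, 0.015 and 0.0025 in the first 3 of these.

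DESeq2 called 1083 genes in the mean of both lines, 679 in KO1 (1622 with edgeR), 864 in KO2 and 35 between the lines (99 with edgeR), and 1 member in KO1 in place of 3. The fit of all 12 libraries called 1421, 858, 1008 and 39 genes there and 1763 at E17 against E16; in it Mycl missed the threshold in the mean of both lines (adjusted p = 0.0679) and in KO2 (0.0619), and Mycn in KO1 (0.0534), with edgeR. The replicate block changed no member's call and gave 2531 genes in the mean of both lines; the numbers do not pair the libraries.

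Without 1 library, genes called ranged from 859 (without the second KO1 library) to 1779 in KO1, from 905 (without the second KO2 library) to 1869 in KO2, from 41 (without the second KO1 library) to 189 (without the first WT library) between the lines, from 232 (without the first E17 library) to 3645 (without the first E16 library) at E17 against E16, and from 3200 (without the first P7 library) to 6044 at P7 against GSC WT. Members called ranged from 1 to 3 in KO1, 0 to 1 at E17 against E16, 5 to 8 at P7 against E17 and 2 to 4 at P7 against GSC WT. Signs changed for Max in the mean of both lines (-0.15 to 0.23), KO1 (-0.37 to 0.30), KO2 (-0.11 to 0.26) and between the lines (-0.44 to 0.23), for Mxd1 (-0.068 to 0.56) and Mxd3 (-0.23 to 0.22) in KO1, Mxd4 in KO2 (-0.41 to 0.10), Myc (-0.36 to 2.26), Mycn (-0.86 to 0.50) and Mxi1 (-0.27 to 0.33) at E17 against E16, Mxi1 at P7 against GSC WT (-0.026 to 0.50) and Myc in fetal cells (-0.027 to 1.28); none of these was called with all libraries. The ranges of members called stand beside 13.6% of all genes called in KO1 and 6.6% at E17 against E16, with all libraries. On the same basis 67.9% of all genes were called at P7 against E17 and 31% at P7 against GSC WT. Depth limits Myc, Mxd1 and fetal Mycn and Mxd4, which rest on 0 to 16 reads per library outside the knockout lines.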
